A study of Mus musculus with 80 samples.

Results

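Immediate early genes of the AP-1 group and their close companions were followed through the RNA data of a study of aging mouse hematopoietic stem cells (HSCs). The 10 genes Fos, Fosb, Jun, Junb, Jund, Egr1, Ier2, Klf4, Atf3 and Nr4a1 were taken by name, and all 10 were present among the 21825 gene symbols of the bulk tables and the 21901 genes of the single-cell matrices. HSCs were sorted by flow cytometry from the bone marrow of male C57BL/6 mice as lineage-negative, Sca-1-positive, c-Kit-positive cells that were CD48-negative, CD34-negative and CD150-positive. The 24 bulk libraries formed 8 groups of 3: HSCs of young mice (2 to 3 months), HSCs of old mice (22 to 24 months), 4 groups of old HSCs split by surface CD150, each taking 25% of the cells, from the lowest (G1) to the highest (G4), and old CD150low or CD150high HSCs recovered on day 4 after transplantation into irradiated young recipients. The same 3 old mice gave the libraries of G1 to G4. Single-cell libraries, 1 per group, held fresh young HSCs, fresh old HSCs, and the donor-derived LSK stem and progenitor cells of old CD150low or CD150high HSCs on day 14. Donor and host cells were told apart in the transplanted groups by CD45.2 against CD45.1, and no group carried a further allele or agent. Nothing in the labels says whether the replicates of the other groups came from separate mice, so p-values measure the spread between these libraries, which may be technical.

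Immediate early genes are transcribed from promoters that are already poised, and they answer growth factors, stress or mechanical handling before new protein is made. Their mRNAs and proteins are short-lived, so a level at one moment reflects recent signaling. FOS proteins (Fos, Fosb) pair with JUN proteins (Jun, Junb, Jund) to form AP-1, which binds DNA through basic leucine zippers. Atf3 is a stress-induced factor of the same zipper superfamily. Egr1 and Klf4 are zinc-finger transcription factors, and Egr1 is known for its part in holding HSCs in quiescence and in the niche. Nr4a1 (Nur77) is an orphan nuclear receptor also linked to HSC quiescence, and Ier2 encodes a short nuclear protein of the early response. Since bone crushing, bead depletion, antibody staining and sorting all precede lysis, transcripts of this group can also change between the animal and the library.

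In the mm10 build with GENCODE vM21 annotation, 3 of the genes lie on chromosome 8: Junb at chr8:84974484-84978718, Jund at chr8:70698949-70700616 and Ier2 at chr8:84661331-84662852. Fos lies at chr12:85473890-85477273, Fosb at chr7:19302696-19310051, Jun at chr4:95049034-95052222, Klf4 at chr4:55527143-55532466, Atf3 at chr1:191170296-191218039 and Nr4a1 at chr15:101254269-101274795. Jun overlaps the antisense transcript Junos, Junb overlaps Prdx2 on the opposite strand, Jund overlaps the antisense Gm11175 and Atf3 overlaps Gm24748. Per the study's methods, bulk reads were counted without regard to strand, while the tool behind the deposited FPKM values is not given. Signal from these partners may thus be included in the bulk values.

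Promoters of 8 of the 10 genes were found in the RefSeq promoter table (GRCm38.p6), and the 250 bases before each start were searched on both strands. The cAMP response element core TGACG (reverse complement CGTCA), bound by CREB and ATF proteins, occurred in 6 of 8 members (Fos, Fosb, Junb, Klf4, Atf3 and Nr4a1) and in 17.9% of all 27025 promoters. The EGR element GCGNGGGCG occurred in 3 of 8 (Klf4, Fosb and Nr4a1) and in 4.65% of all promoters. The AP-1 element TGANTCA was found in 0 of 8 and in 6.87% of all promoters, and the serum-response CArG box in 0 of 8 and in 1.4%. Absence here covers only these 250 bases, since sequence farther upstream was not searched. Egr1 and Ier2 had no entry, so their promoters were not searched. TATAAA was found in Fos alone among the 8 and in 13.0% of all. The first 2 motifs do not overlap each other in the sequences below, which are shown because 3 of these genes (Fos, Fosb and Nr4a1) led the library that stands apart, and Junb was the gene called between old and young HSCs once it was left out. Capitals mark TGACG or CGTCA and GCGNGGGCG or its reverse complement, and each sequence is written 5′ to 3′ on the strand of its gene.
Fos promoter, chr12:85473640-85473889, plus strand: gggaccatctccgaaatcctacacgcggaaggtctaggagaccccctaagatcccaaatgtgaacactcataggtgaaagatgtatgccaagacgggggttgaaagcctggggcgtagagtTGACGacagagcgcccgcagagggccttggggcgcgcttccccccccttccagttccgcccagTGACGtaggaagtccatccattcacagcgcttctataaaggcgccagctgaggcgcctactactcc
Fosb promoter, chr7:19310046-19310295, minus strand: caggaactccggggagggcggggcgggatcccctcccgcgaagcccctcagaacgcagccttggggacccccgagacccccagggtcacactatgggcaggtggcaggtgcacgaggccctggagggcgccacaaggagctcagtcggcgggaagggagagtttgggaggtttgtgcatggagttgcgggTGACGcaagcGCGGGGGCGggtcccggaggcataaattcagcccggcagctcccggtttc
Junb promoter, chr8:84978749-84978998, minus strand: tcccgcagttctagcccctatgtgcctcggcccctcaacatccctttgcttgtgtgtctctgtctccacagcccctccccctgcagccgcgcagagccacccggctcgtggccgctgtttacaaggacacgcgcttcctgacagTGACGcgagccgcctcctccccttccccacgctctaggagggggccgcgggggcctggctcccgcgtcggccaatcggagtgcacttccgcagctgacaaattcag
Nr4a1 promoter, chr15:101266596-101266845, plus strand: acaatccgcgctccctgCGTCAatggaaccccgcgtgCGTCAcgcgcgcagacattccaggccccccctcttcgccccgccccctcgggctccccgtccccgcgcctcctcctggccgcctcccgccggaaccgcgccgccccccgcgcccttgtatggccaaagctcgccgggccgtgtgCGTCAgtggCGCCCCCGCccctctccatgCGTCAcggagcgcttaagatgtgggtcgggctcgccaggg
Fos carried TGACG from -129 to -125 and from -66 to -62 counted from the start site, with TATAAA from -33 to -28. Nr4a1 carried CGTCA at 4 places between -233 and -36. The Nr4a1 and Fosb windows follow the RefSeq start, which lies inside the span of the annotated gene.

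Values of the bulk libraries are FPKM (fragments scaled to transcript length and library size), as deposited, and levels are compared between genes on that per-length scale. Read totals are not part of the tables. The 13 mitochondrial genes are listed at 0 in every bulk library, and between 10362 and 11215 genes reached 1 FPKM per library. All 8 HSC markers were measured in every fit, and Slamf1, which encodes CD150, rose from G1 to G4 by 0.61 ± 0.07 per step on the log2 scale (SE; limma, adjusted p = 0.00138), as the sort intends. Single-cell libraries held 1104 young, 2758 old, 2406 CD150low and 1933 CD150high cells after filtering, with a median of 13357.5 to 30651 UMIs (unique molecular identifiers, each counting 1 captured mRNA) per cell. Any pair of single-cell libraries shared 0 to 3 cell barcodes. In bulk samples, fewer cells with a transcript and less transcript per cell cannot be told apart.

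One young library stood apart before any group comparison was made. In young replicate 3, all 10 members exceeded both other young libraries more than 2-fold on the FPKM + 1 scale, against 0.782% of the 10866 genes whose young mean reached 1 FPKM. Fosb, Klf4, Atf3 and Nr4a1 reached that mean only through replicate 3 itself, so their place in this count is not independent of the filter. Fos measured 4.35, 10.4 and 1137 FPKM in young replicates 1, 2 and 3. Egr1 measured 9.93, 6.83 and 252.9 FPKM, and Nr4a1 0.0203, 0.413 and 37.9 FPKM. Young replicates 1 and 2 thus lay close together for Fos and Egr1 while the third was over an order of magnitude higher.

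Among the FOS proteins' genes, Fosb measured 0.369, 0.551 and 37.4 FPKM in the 3 young libraries. Among the JUN genes, Jun measured 11.6, 14.4 and 103.3 FPKM, Junb 28.4, 34.7 and 410.6 FPKM, and Jund 14.6, 19.4 and 111.4 FPKM. The zipper partner Jund, which many cells keep at a steady level, showed the smallest excess of the 10, at 5.52-fold of FPKM + 1 over the higher of the other libraries, and Fos the largest at 100-fold. Ier2 measured 85.7, 100.0 and 737.0 FPKM. Klf4 (0.384, 0.102 and 6.69 FPKM) and Atf3 (0.00373, 0.0162 and 4.74 FPKM) were near 0 in both other libraries.

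The members took ranks 1 to 4 among the 10866 genes by this excess, in the order Fos, Nr4a1, Fosb and Egr1, and all 10 fell within the leading 20. The other 10 of the leading 20 were 5 early response genes, the histone genes H2bc15, H2bc13, H2bc8 and H2ac19 (6.93- to 8.34-fold) and the chemokine gene Ccl3 (5.53-fold). Of the early response genes, Btg2, an antiproliferative gene, was 18.1-fold higher, Klf2, a zinc-finger factor, 17.8-fold, Dusp1, a MAP kinase phosphatase, 16.4-fold, Zfp36, which promotes mRNA decay, 14-fold, and Ppp1r15a, a stress-response phosphatase subunit, 10.1-fold. Of the 28 measured genes on the list of other early response genes, 13 passed the same 2-fold mark. By comparison, 0 of 11 heat shock genes, 0 of 7 macrophage, 0 of 2 neutrophil and 0 of 4 erythroid markers passed it. Nr4a1, Fosb, Klf4, Atf3, Klf2 and H2bc13 were below 1 FPKM in both other young libraries. They entered this ranking, and at least Klf2 the 13, only through replicate 3. Their places are thus not independent of the filter. The summed level of the 10 members was 155.3, 186.7 and 2839 FPKM in young replicates 1, 2 and 3. The tests between old and young HSCs and the correlations across libraries are given with and without this library.

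**Figure D1:**
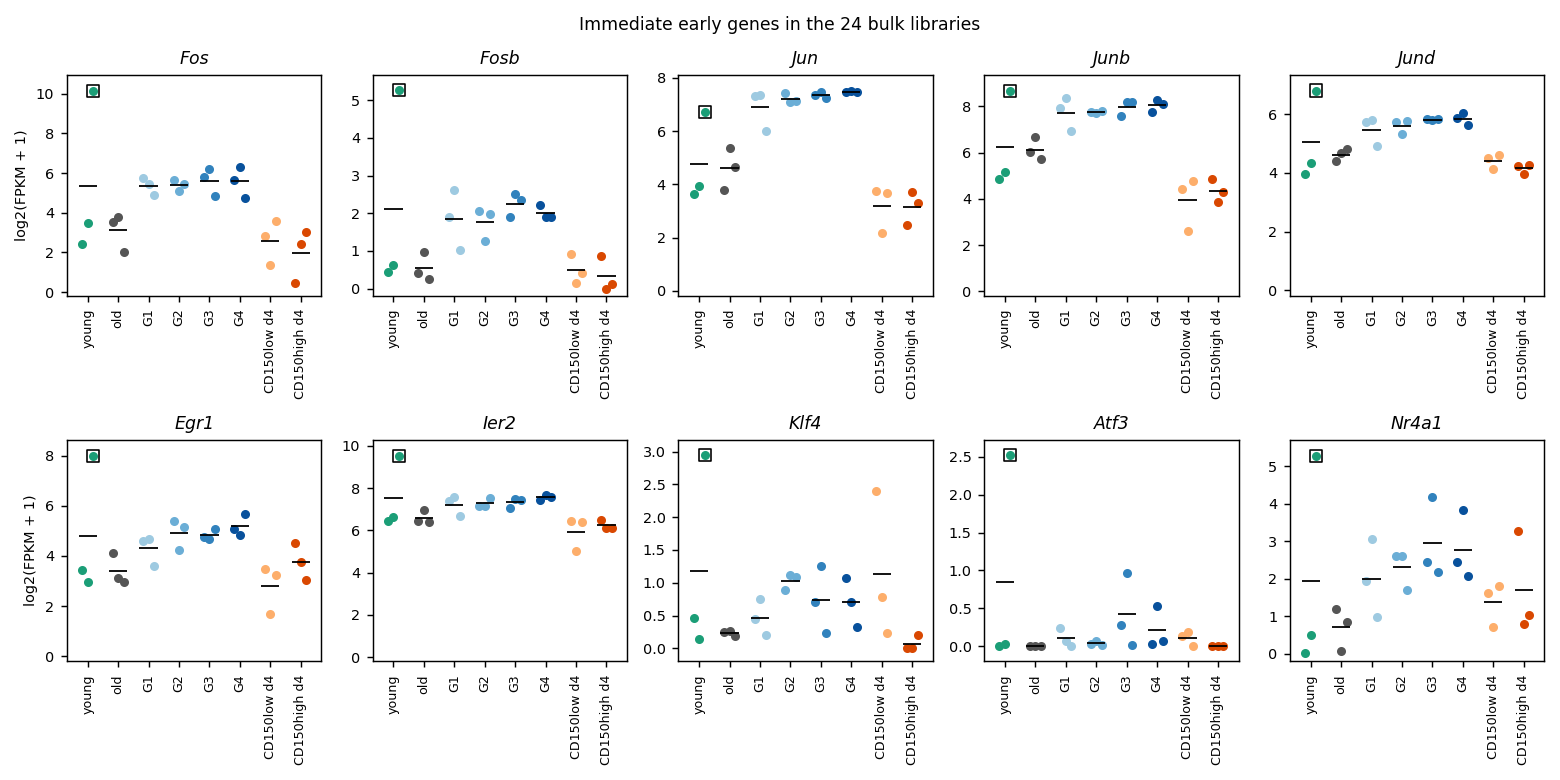
Each panel shows 1 gene as log2(FPKM + 1) in the 24 bulk libraries, in 8 groups of 3 (young, old, G1 to G4, and CD150low and CD150high on day 4). Points are libraries, horizontal bars are group means, and the black square is young replicate 3, which sits above every other library for Fos and Egr1; the G1 to G4 points lie above those of undivided old HSCs for Fos, Fosb, Jun, Junb and Jund.

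Old and young HSCs were then compared to ask whether the early response genes change with age. None of the 10 members passed the test (limma on log2(FPKM + 1), which asks for an adjusted p under 0.05 together with a change of more than 2-fold in either direction), against 1.92% of 11279 genes that rose and 1.73% that fell. The smallest unadjusted p among the members was 0.129 (Klf4, limma). Levels in the 3 old libraries were 10.4, 12.9 and 3.09 FPKM for Fos, 16.6, 7.69 and 6.85 FPKM for Egr1 and 63.5, 101.3 and 51.9 FPKM for Junb. For every member the old and the young libraries overlapped, while 11.3% of genes had every old library below every young one and 12.5% every old library above. The fitted log2 change of Fos was -2.25 ± 1.47 (SE; adjusted p = 0.466), with a 95% interval from -5.46 to 0.97, and that of Jun was -0.16 ± 0.65 (adjusted p = 0.94). The others were -1.57 for Fosb, -1.39 for Egr1, -1.23 for Nr4a1, -0.95 for Ier2 and Klf4, -0.85 for Atf3, -0.41 for Jund and -0.1 for Junb, with adjusted p from 0.428 (Klf4) to 0.967 (Junb).

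Leaving out young replicate 3, which was singled out because these same genes were high in it, changed this picture. Its removal raises the members' changes and narrows their spread by construction, so the members' p-values without it are not independent tests. Junb, which can restrain as well as assist AP-1, rose in old HSCs by 1.12 ± 0.24 on the log2 scale (SE; limma, adjusted p = 0.0215), where 1.87% of 11313 genes rose and 1.47% fell. It was the only member called, out of 6 whose mean still reached 1 FPKM in a group. Jun moved by 0.81 ± 0.36 (adjusted p = 0.274) and Jund by 0.47 ± 0.21 (adjusted p = 0.272), neither of which passed the test. Fos (0.15 ± 0.48, adjusted p = 0.923), Egr1 (0.2 ± 0.34, adjusted p = 0.839) and Ier2 (0.05 ± 0.17, adjusted p = 0.937) did not pass either. All 3 old libraries then lay above both young ones for Junb and Jund, 2 of the 6 members, as in 17.4% of genes (16% the reverse). The sign of the Junb value is opposite with the library kept (-0.1 ± 0.75, adjusted p = 0.967). These 3 old libraries also had fewer transcripts of the complement genes C1qa, C1qb and C1qc, made by macrophages. In the comparison of all 6 libraries they fell by 1.72, 1.7 and 1.59 on the log2 scale (limma, adjusted p = 0.00964, 0.0164 and 0.0152). Without young replicate 3 they fell by 1.57, 1.76 and 1.51. The summed macrophage markers, most of it Lyz2, ranged from 597.0 to 670.0 FPKM in old and from 661.0 to 673.0 FPKM in young libraries. The part of the macrophage markers in the Junb value was not tested. Of the other lists, the largest rises in old HSCs were the heat shock gene Hspb1 (2.1 ± 0.31, adjusted p = 0.00255), the AP-1 partner Maf (1.85 ± 0.27, adjusted p = 0.00242) and Slamf1 (1.15 ± 0.2, adjusted p = 0.00564), which were 1.86, 2.02 and 1.28 without young replicate 3.

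Among old HSCs divided by CD150, no member passed the test for a linear trend from G1 to G4, where 0.274% of 11673 genes rose and 0.111% fell. Jun had a slope of 0.19 ± 0.08 per step (adjusted p = 0.394 in limma) and Egr1 a slope of 0.26 ± 0.11 (adjusted p = 0.381). Their unadjusted p, 0.0324 and 0.0261 in limma, were the lowest of the 9 tested members, and neither passed once adjusted over all genes. Jun measured 159.5, 162.8 and 63.2 FPKM in G1 against 177.3, 183.5 and 175.1 FPKM in G4, and Egr1 23.2, 24.8 and 11.3 FPKM in G1 against 32.3, 27.8 and 50.1 FPKM in G4. For both genes all 3 G4 libraries lay above all 3 G1 libraries, as in 7.26% of genes (the reverse in 7.14%). Both values leaned on G1 replicate 3, the lowest library for each: without it the slope of Jun was 0.07 ± 0.04 (adjusted p = 0.75) and that of Egr1 0.15 ± 0.09 (adjusted p = 0.75). The other slopes were 0.3 for Nr4a1, 0.13 for Jund, 0.12 for Junb, 0.11 for Ier2, 0.1 for Fosb, 0.08 for Fos and 0.04 for Klf4, and Atf3 was not tested. The same comparison of G4 with G1 gave 0 called members (0.111% of all genes rose, 0.0171% fell), with Egr1 at 0.9 ± 0.34 (adjusted p = 0.49) and Jun at 0.59 ± 0.28 (adjusted p = 0.604), or 0.55 and 0.15 without G1 replicate 3. In that comparison Nr4a1 was at 0.79, Jund at 0.37, Ier2 at 0.35, Junb at 0.32, Klf4 at 0.23, Fos at 0.21 and Fosb at 0.16, none of which passed, while Slamf1 rose by 1.88 ± 0.23 (adjusted p = 0.00418). The summed members were 357.7 FPKM in the lowest of these 12 libraries (G1 replicate 3) and 886.5 FPKM in the highest (G4 replicate 2).

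The G1 to G4 libraries as a whole stood above undivided old HSCs. Fos measured 25.8, 45.8 and 79.2 FPKM (lowest, median and highest of 12 libraries) in G1 to G4, against 3.09 to 12.9 FPKM in the undivided libraries. Jun measured 63.2, 162.8 and 183.5 FPKM against 12.9, 40.7 and 24.0 FPKM. Junb, at 119.9, 233.3 and 324.2 FPKM, lay above the 51.9 to 101.3 FPKM of the undivided libraries. All 12 G1 to G4 libraries exceeded all 3 undivided libraries for 5 of the 8 members tested (Fos, Fosb, Jun, Junb and Jund), against 4.12% of 11390 genes. Fosb reached a mean of 1 FPKM only in G1 to G4 (3.09 against 0.496 FPKM), so its place in this count is not independent of the filter. Ratios of the medians ran from 2.06 (Ier2) to 8.95 (Fosb).

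Egr1, Ier2 and Nr4a1 overlapped between G1 to G4 and the undivided libraries, with ratios of medians of 3.49, 2.06 and 5.61. Of the 28 other early response genes tested, 8 showed the complete separation, as did 0 of 12 AP-1 partners. In the other direction, all 12 libraries lay below the undivided ones for 3 of 12 heat shock genes, 1 of 4 macrophage markers and 1 of the 28 other early response genes, against 1.5% of all genes. The summed heat shock genes were 2292 to 3000 FPKM in G1 to G4 and 3351 to 3895 FPKM in undivided HSCs. The summed macrophage markers were 474.0 to 575.0 and 597.0 to 670.0 FPKM, so neither sum overlapped. Most of the macrophage sum was Lyz2 (460.0 to 561.0 and 584.0 to 659.0 FPKM). C1qa, C1qb and C1qc were at most 2.02 FPKM in any of these libraries. Cd68 went the other way by its group medians (9.31 to 13.1 against 5.69 FPKM), with overlapping values. The part of these genes in the members' excess was not tested. The 8 HSC markers had ratios of medians from 0.917 to 1.42. Together G1 to G4 make up the whole of the old HSCs that were divided, from the lowest to the highest CD150. Their shared excess over undivided HSCs is thus not a comparison of CD150 levels. The labels do not say whether split and undivided cells shared mice or sorts. The part of mice and sorts in the excess was not tested. The median level over G1 to G4 followed the order Junb, Ier2, Jun (233.3, 174.6 and 162.8 FPKM), then Jund, Fos and Egr1 (54.0, 45.8 and 26.8 FPKM), with Nr4a1, Fosb, Klf4 and Atf3 below 5 FPKM. Neighbors in this order overlapped in their ranges.

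Transplanted HSCs had lower levels of most members than the fresh groups they were set against. On day 4, CD150low HSCs measured 12.3, 3.46 and 11.8 FPKM for Jun and CD150high HSCs 4.48, 12.2 and 8.72 FPKM, where G1 had 63.2 FPKM or more and G4 175.1 FPKM or more. Junb measured 20.5, 5.21 and 26.5 FPKM in CD150low and 28.5, 13.7 and 18.6 FPKM in CD150high cells. Fos measured 6.02, 1.59 and 11.1 FPKM in CD150low and 0.399, 4.35 and 7.06 FPKM in CD150high cells. None of these libraries reached the lowest library of its fresh group.

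In CD150low cells, 7 of the 9 members tested fell against G1, where 13.2% of 11894 genes fell and 6.63% rose. Fosb reached a mean of 1 FPKM only in the fresh groups of this fit (2.97 in G1 and 3.04 in G4). Its call, here and against G4 below, is thus not independent of the filter. In all 7 the day 4 libraries lay entirely below those of G1, a pattern found in 25.8% of genes (the reverse in 16.7%). The largest were Junb (log2 change -3.78 ± 0.47, adjusted p = 7.41e-05 in limma) and Jun (-3.71 ± 0.44, adjusted p = 4.81e-05). Fos fell by 2.77 ± 0.63 (adjusted p = 0.00456), Fosb by 1.36 ± 0.4 (adjusted p = 0.018), Egr1 by 1.49 ± 0.48 (adjusted p = 0.0277), Ier2 by 1.28 ± 0.32 (adjusted p = 0.00797) and Jund by 1.07 ± 0.25 (adjusted p = 0.005). Klf4 (0.67 ± 0.45, adjusted p = 0.267) and Nr4a1 (-0.62 ± 0.67, adjusted p = 0.508) did not pass, and Atf3 was below 1 FPKM in the groups of this fit. This count depended on single libraries: it was 3 without CD150low day 4 replicate 2 and 4 without G1 replicate 2.

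In CD150high cells, the same 7 members fell against G4, where 14.4% of genes fell and 7.48% rose. Jun fell by 4.34 ± 0.44 (adjusted p = 1.02e-05 in limma), Junb by 3.7 ± 0.47 (adjusted p = 6.06e-05), Fos by 3.6 ± 0.63 (adjusted p = 0.000656), Jund by 1.69 ± 0.25 (adjusted p = 0.000157), Fosb by 1.68 ± 0.4 (adjusted p = 0.00516), Egr1 by 1.42 ± 0.48 (adjusted p = 0.0329) and Ier2 by 1.33 ± 0.32 (adjusted p = 0.00558). All 3 day 4 libraries lay below all 3 of G4 for these genes, as in 33.3% of genes (the reverse in 21.5%). Klf4 (-0.63 ± 0.45, adjusted p = 0.293) and Nr4a1 (-1.08 ± 0.67, adjusted p = 0.227) did not pass. The median log2 change over all genes was -0.17 in CD150low and -0.2 in CD150high cells, and over the members -1.36 and -1.68.

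**Figure D2:**
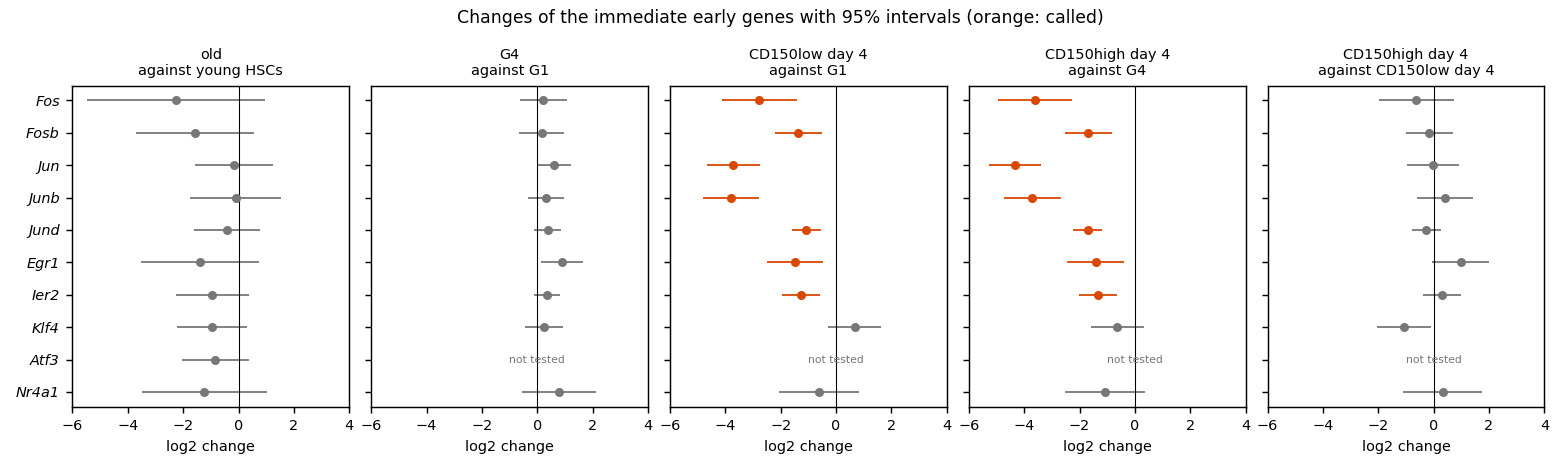
Log2 change of each member (log2(FPKM + 1) scale) with its 95% interval in 5 bulk comparisons; orange points passed the test and grey points did not. In both day 4 comparisons 7 members passed, with Jun and Junb between -3.7 and -4.34, and none passed in old against young HSCs, where the intervals are wide.

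The number of members that fell depended on the reference. When undivided old HSCs replaced G1 and G4, only Jun and Junb were called in each comparison, of 8 tested, while 10.5% (CD150low) and 9.81% (CD150high) of 11623 genes fell and 7.77% and 7.05% rose. Junb then changed by -2.19 ± 0.46 (adjusted p = 0.00286 in limma) in CD150low and -1.79 ± 0.46 (adjusted p = 0.0101) in CD150high cells. Jun changed by -1.41 ± 0.48 (adjusted p = 0.0365) and -1.45 ± 0.48 (adjusted p = 0.0341). Fos no longer passed, at -0.52 ± 0.68 (adjusted p = 0.586) in CD150low and -1.14 ± 0.68 (adjusted p = 0.22) in CD150high cells, and Egr1 in CD150high cells was 0.37 ± 0.49 (adjusted p = 0.601).

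Related genes and markers of other cells moved beside the members. Other early response genes fell in 16 of 28 (CD150low) and 21 of 28 (CD150high) cases with a median log2 change of -1.54 and -1.57, and Dusp1, which switches off MAP kinases, fell by 3.28 ± 0.49 (adjusted p = 0.000284 in limma) and 3.57 ± 0.49 (adjusted p = 0.000106). Of 12 AP-1 partner genes (other zipper proteins that pair with FOS or JUN), 1 rose and 3 fell in CD150low and 0 rose and 6 fell in CD150high cells. Of 13 genes upstream of the early response, 1 fell in CD150low cells and 0 fell in CD150high cells. Of 12 heat shock genes, 3 rose in each, and their sum went from 2578 to 3000 FPKM in G1 and G4 to 4636 to 5780 FPKM on day 4. Of 8 HSC markers, 5 and 6 fell.

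Macrophage markers rose in 6 (CD150low) and 7 (CD150high) of 12 cases. C1qb, which was between 0.0 and 0.431 FPKM in G1 and 0 in G4 (as were C1qa and C1qc there), rose by 4.93 ± 0.58 (adjusted p = 4.67e-05 in limma) and 6.03 ± 0.58 (adjusted p = 7.21e-06). C1qa rose by 4.5 and 5.08 and C1qc by 4.29 and 5.47. The summed macrophage markers were 474.0 to 575.0 FPKM in G1 and G4 and 427.0 to 918.0 FPKM on day 4, most of it Lyz2. Erythroid markers summed to 35.7 to 177.0 FPKM in G1 and G4 and to 611.0 to 1014 FPKM on day 4, with 2 of 4 rising in each comparison. Neutrophil markers summed to 6.72 to 96.6 FPKM in G1 and G4 and to at most 1.15 FPKM on day 4, with S100a9 at -3.78 and -3.84 and S100a8 at -3.49 and -3.94, all called. The part of these cells in the members' changes was not tested.

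CD150high and CD150low cells were also set against each other on day 4. No member passed the test, against 0.00841% of 11894 genes that rose and 0 that fell. The smallest unadjusted p among the members was 0.031 (Klf4, limma). Klf4 measured 4.29, 0.713 and 0.176 FPKM in CD150low and 0.0, 0.0 and 0.15 FPKM in CD150high cells, a log2 change of -1.07 ± 0.45 (adjusted p = 0.683 in limma). It entered this fit only through the CD150low day 4 group, the one whose mean reached 1 FPKM (1.727). The p-value of Klf4 is thus not independent of the filter. Egr1 was 0.97 ± 0.48 (adjusted p = 0.774) with an interval from -0.05 to 1.99. The remaining values ran from -0.62 (Fos) to 0.4 (Junb). The change from fresh to day 4 was not shown to differ between CD150 groups for any member. In the interaction test 0 members passed, against 0.00841% of genes (smallest unadjusted p = 0.0581 in limma, for Klf4). Klf4 was at -1.3 ± 0.63 and Jund at -0.63 ± 0.35 (adjusted p = 0.762 for both). The other interaction values were -0.84 for Fos, -0.63 for Jun, -0.46 for Nr4a1, -0.31 for Fosb, -0.05 for Ier2, 0.07 for Egr1 and 0.09 for Junb.

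Members were correlated across libraries to see how far they move as a block within groups. Over 15 samples (G1 to G4 averaged per mouse, the other libraries taken as separate, which the labels do not state), Pearson's r of deviations from group means had a median of 0.862 over the 45 gene pairs, with a range from 0.575 to 0.987, and Spearman's rho a median of 0.608. All 45 pairs were above 0. The median over all pairs of 12093 genes was 0.00916 and their 99th percentile 0.748, and 38 member pairs exceeded it. By exact permutation within groups, 18 of the 45 pairs had an unadjusted two-sided p under 0.05 and 2 passed after adjustment over the 45, Junb with Ier2 (r = 0.987, p = 0.00167) and Fosb with Ier2 (r = 0.943, p = 0.00141), both with an adjusted exact permutation p of 0.0376. Shares of all gene pairs under 0.05 are not given here or below, so no excess is read from these unadjusted counts. Without the 2 samples farthest from the median of the x axis, the median r was 0.584, with a range from -0.0208 to 0.969.

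These correlations rested largely on young replicate 3. Without it the median r over 14 samples was 0.312 (range -0.287 to 0.964), with 37 of 45 pairs above 0 and a median rho of 0.294. Only 1 pair then exceeded the 99th percentile of all gene pairs (0.776), Junb with Ier2 at r = 0.964. By exact permutation 3 of 45 pairs had an unadjusted p under 0.05 and 0 passed after adjustment (smallest adjusted p = 0.113). Libraries share sort, staining and amplification in ways the tables do not record.

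**Figure D3:**
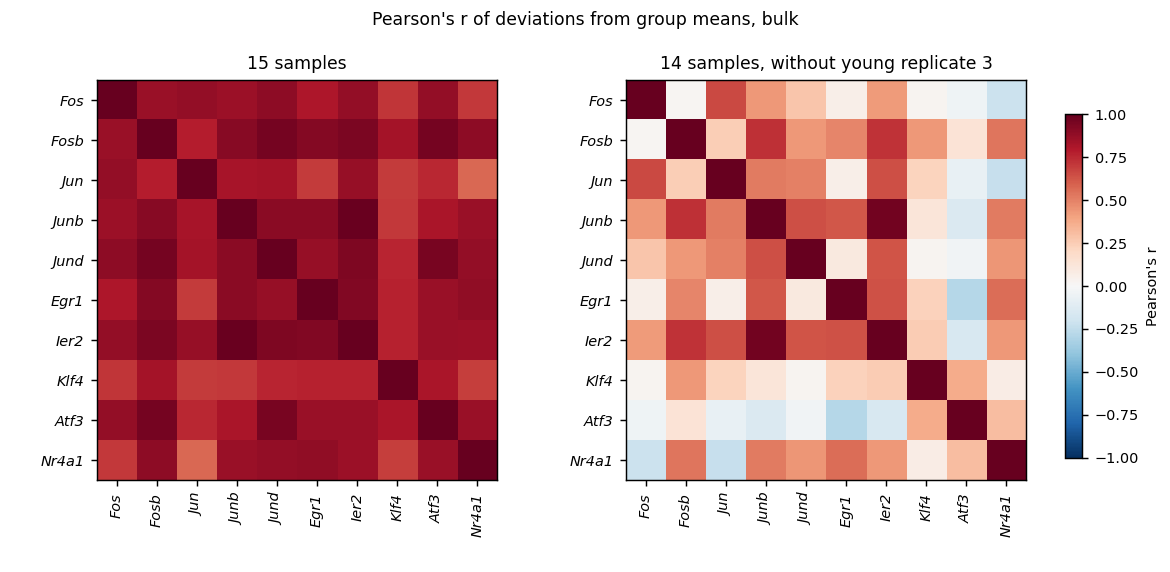
Heat maps of Pearson's r between the members' deviations from their group means, over 15 samples at left and over the 14 samples without young replicate 3 at right, on one color scale. The left map is uniformly high (median 0.862) and the right one mixed (median 0.312), with Junb and Ier2 still at 0.964.

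The genes whose levels most resembled the members' mean over the 24 libraries were Btg2 (r = 0.937), Ppp1r15a (0.935), Zfp36 (0.921), Dusp1 (0.887), H1f2 (0.852), Klf2 (0.844), Rgs1 (0.825), Klf6 (0.814), Dusp2 (0.807) and Rasd1 (0.795), of 12083 genes. Over 23 libraries without young replicate 3, the order began with Stat3 (0.95), Zfp36 (0.929), Klf3 (0.928) and Zbtb7a (0.922), followed by E130308A19Rik (0.921), Cirbp (0.906), Ppp1r15a (0.905), Abhd15 (0.899), Plin3 (0.897) and Csnk1e (0.894). Zfp36 and Ppp1r15a were thus named in both lists. Unlike the correlations above, these used the members' mean z-score with group means kept, so differences between groups count toward r.

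In single cells, each group was 1 library, so values carry counting error and no test between groups. Levels are CPM, the UMIs of a gene scaled to the total of its library, with exact Poisson 95% intervals, and shares of cells are given after each cell was thinned to 8975 UMIs, with exact binomial intervals. Fresh young HSCs had 278.0 CPM of Fos (271.0 to 287.0) and 558.0 of Jun (546.0 to 569.0), and fresh old HSCs had 68.0 (65.4 to 70.7) and 389.0 (383.0 to 395.0). On day 14 the progeny of CD150low HSCs had 52.6 (50.6 to 54.6) and 225.0 (221.0 to 230.0), and those of CD150high HSCs 4.04 (3.56 to 4.56) and 69.7 (67.7 to 71.8). The 4 libraries thus followed the order young, old, CD150low day 14 and CD150high day 14 for both genes.

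The summed members measured 1912, 1120, 662.0 and 298.0 CPM in the same order. Fosb (139.0, 26.2, 51.5 and 3.35 CPM) and Junb (106.0, 123.0, 65.6 and 48.2 CPM) broke the order of the sum, since Fosb was higher on day 14 in CD150low progeny than in fresh old HSCs and Junb was higher in old than in young HSCs. Within cells called G0/G1, Junb measured 141.0 CPM in young and 140.0 CPM in old HSCs, and within S cells 71.0 and 88.5 CPM. Jund measured 470.0, 292.0, 145.0 and 84.3 CPM, Egr1 157.0, 65.7, 21.0 and 15.4 CPM and Ier2 183.0, 151.0, 95.3 and 68.6 CPM. Klf4 (11, 2.53, 1.98 and 1.45 CPM) and Nr4a1 (9.39, 2.71, 2.71 and 2.42 CPM) were rare. Atf3 was seen with 12, 4, 11 and 11 UMIs in the 4 libraries.

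Relative to young HSCs, old HSCs had a log2 ratio of -0.77 (-0.79 to -0.75, counting error) for the summed members. Fosb (-2.4), Klf4 (-2.11), Fos (-2.03) and Egr1 (-1.25) were below 0.5-fold, which makes 4 of the 8 members with at least 10 CPM in either library, against 1.46% of 8466 genes. Klf4 (11 against 2.53 CPM) reached 10 CPM only in the young library. Its place in this count is thus not independent of the filter. Jund (-0.69), Jun (-0.52), Ier2 (-0.27) and Junb (0.21) were closer to 1, and of 25 other early response genes 2 were below 0.5-fold. No member was over 2-fold higher, against 1.43% of genes. Bulk values on the log2(FPKM + 1) scale were -2.25 for Fos, -0.16 for Jun and -0.1 for Junb with all libraries, and 0.15, 0.81 and 1.12 without young replicate 3, so whether Fos and Jun had the same sign in both assays turned on that library; of these, only Junb without it passed the test. The share of cells with a Fos UMI was 46.5% (43.4 to 49.6) in young and 27.1% (25.4 to 28.9) in old thinned cells, and 51.8% and 32.5% before thinning. For Jun the thinned shares were 73.7% in young and 78.9% in old HSCs, in the opposite order to its CPM, so no order is read from them. The libraries hold no cell type known to lack these genes, so the share that free RNA gives was not measured.

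Between the day 14 libraries, the CD150high progeny had a log2 ratio of -1.15 (-1.18 to -1.13, counting error) to the CD150low progeny for the summed members. Fos (-3.7), Fosb (-3.94) and Jun (-1.69) were below 0.5-fold. They make 3 of 7 members with at least 10 CPM in either library, against 0.444% of 8115 genes and 3 of 22 other early response genes. Fos (52.6 against 4.04 CPM) and Fosb (51.5 against 3.35 CPM) reached 10 CPM only in the CD150low library. Their place in this count is thus not independent of the filter. No member was over 2-fold higher, against 0.53% of genes. Fos was found in 22.4% (20.7 to 24.2) of thinned CD150low and 3.97% (3.14 to 4.94) of thinned CD150high progeny. Jund (-0.79), Ier2 (-0.47), Junb (-0.44), Egr1 (-0.44), Klf4 (-0.45), Atf3 (-0.34) and Nr4a1 (-0.16) were within 2-fold. Neutrophil markers summed to 50.2 CPM in the CD150low and 15.9 CPM in the CD150high library. Erythroid markers summed to 341.0 and 203.0 CPM and macrophage markers to 209.0 and 207.0 CPM, with 1 macrophage marker at 10 CPM or more. These sums do not count cells. In the clusters described below, macrophage-like cells (resolution of 1) made up 0.374% of CD150low and 0.931% of CD150high cells. Erythroid-like cells made up 0.291% and 0.621%. The part of these markers and cells in the members' difference was not tested. Within cells called G0/G1 the summed ratio of the members was -1.16.

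**Figure D4:**
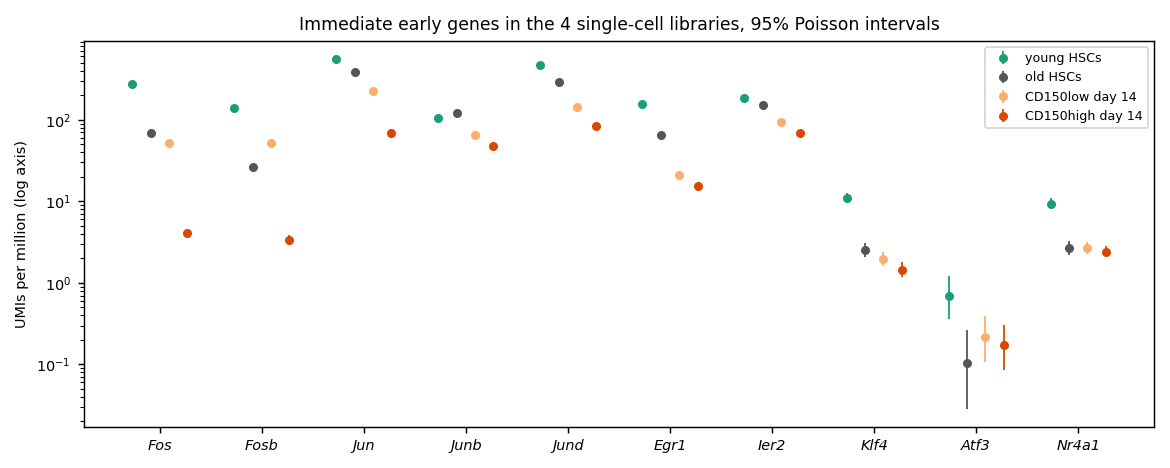
CPM (log axis) of each member in the 4 single-cell libraries, with exact Poisson 95% intervals (counting error only). Fos goes from 278.0 in young HSCs to 4.04 in CD150high progeny on day 14, while Junb stays between 48.2 and 123.0.

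Members also varied with cell cycle phase, called from listed phase genes. In fresh young HSCs, summed members measured 2221 CPM in G0/G1, 1601 in S and 1211 in G2/M cells, and in fresh old HSCs 1209, 948.0 and 707.0 CPM. On day 14 the values were 1122, 593.0 and 527.0 CPM in CD150low and 501.0, 294.0 and 247.0 CPM in CD150high progeny. G0/G1 cells made up 63.2% of young, 72.3% of old, 31.8% of CD150low and 23.6% of CD150high cells, and they had fewer UMIs than the other phases in each library. In all 4 libraries the summed level was thus highest in G0/G1 cells.

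Cells within a library differed in their member content. Per 10000 UMIs, the median cell had 15.1 member UMIs in young and 9.65 in old HSCs, and 4.9 and 2.72 in the CD150low and CD150high progeny. The 90th percentile was 42.4, 22.1, 17.2 and 6.37, and the tenth of cells with the most held 31.3%, 26.2%, 32.5% and 24.7% of all member UMIs. Cells with no member UMI made up 1.45%, 0.725%, 1.45% and 0.569%. The member content followed that of the other early response genes (rho 0.655, 0.402, 0.538 and 0.45), and it had a rho of -0.15, -0.0665, -0.216 and -0.273 with heat shock genes and of 0.0335, 0.146, 0.00671 and 0.0484 with the mitochondrial share. Its rho with total UMIs was -0.0884, -0.0453, -0.319 and -0.406, so it went with depth most on day 14.

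Pairs of members were positively correlated across cells of every library. Over members seen in at least 20% of cells, the median r was 0.363 in young HSCs (range 0.195 to 0.517, 21 pairs, 1104 cells), 0.208 in old HSCs (0.0868 to 0.315, 21 pairs, 2758 cells), 0.315 in CD150low (0.119 to 0.58, 21 pairs, 2406 cells) and 0.174 in CD150high progeny (0.112 to 0.261, 10 pairs, 1933 cells). The 99th percentile over all gene pairs was 0.117, 0.0783, 0.157 and 0.171, and 21, 21, 20 and 5 member pairs exceeded it. After thinning, medians were 0.304, 0.182, 0.218 and 0.1, over 21, 15, 15 and 6 pairs. Fos and Fosb were below 20% in CD150high cells and left out there in both settings. Thinning also dropped Fosb in old HSCs and Egr1 in both day 14 libraries. The medians thus cover unlike sets of genes and are not compared between libraries. Cells of a library share depth and handling, so these values are descriptions. The genes with the highest of the lowest r to the members' mean over all 4 libraries were Zfp36 (0.302), Ppp1r15a (0.286), Btg2 (0.233), Coq10b (0.221), H2ac6 (0.215), Dusp1 (0.202), Mcl1 (0.182), Ftl1 (0.181), Zfp36l2 (0.175) and Pim1 (0.16), of 8167 genes.

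Lastly, day 14 cells were clustered without 40 early response genes to see where the members' difference lies. The 7 clusters with at least 20 cells of each library all had a higher summed CPM of the members in the CD150low than in the CD150high library, by 1.73- to 2.75-fold. Single members did not all follow the sum. Junb measured 46.6 against 48.7 CPM in cluster 1, 86.5 against 89.2 CPM in cluster 2 and 60.2 against 64.7 CPM in cluster 4. In the remaining clusters Junb was higher in the CD150low library. Nr4a1, with few UMIs, was lower in the CD150low library in clusters 0 (1.58 against 2.96 CPM), 4 (1.98 against 2.68 CPM) and 5 (2.63 against 2.97 CPM), and higher in the remaining clusters. Klf4 was lower there in clusters 0 (0.788 against 1.06 CPM) and 4 (0.771 against 1.07 CPM). Atf3, with very few UMIs, was lower in clusters 4 (0.0 against 0.536 CPM) and 5 (0.0 against 0.264 CPM). Both were higher in the remaining clusters. Cluster 3, whose leading genes include Cxcl10, Iigp1, Procr and Ifit1 and which stays unnamed, had the highest levels, 1480 CPM (1434 to 1527) against 625.0 CPM (599.0 to 651.0), with Fos at 168.0 and 19.9 CPM. Its cells also had the fewest UMIs (median 8944 and 15998). Clusters 0 and 5, megakaryocyte-like by Pf4, Vwf and Cavin2 or Gp9, had 659.0 against 240.0 CPM and 804.0 against 334.0 CPM.

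Unnamed cluster 2, led by Wfdc17, Hbb-bs and Ltb, had 870.0 CPM in CD150low and 432.0 CPM in CD150high progeny. Unnamed cluster 1, led by histone and mitosis genes, had 455.0 and 236.0 CPM, and unnamed cluster 4, led by replication genes such as Ung and Hells, 553.0 and 320.0 CPM. Granulocyte-monocyte-like cluster 7 (Elane, Mpo and Ctsg) had 530.0 and 221.0 CPM, with Klf4, a factor known in monocytes, at 16.8 and 11.4 CPM, the highest of the 7 clusters in both libraries. Shares of cells differed between the libraries, with clusters 0 and 5 holding 8.89% and 10.6% of CD150low but 24.9% and 28.0% of CD150high cells. At a resolution of 1, the sum was higher in CD150low than in CD150high in 13 of 13 clusters, though Egr1 was at 10.3 against 33.7 CPM in cluster 4 of that setting. All clusters divide the same 2 libraries, so they are not separate comparisons. The share of all genes with the same pattern was not computed.

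**Figure D5:**
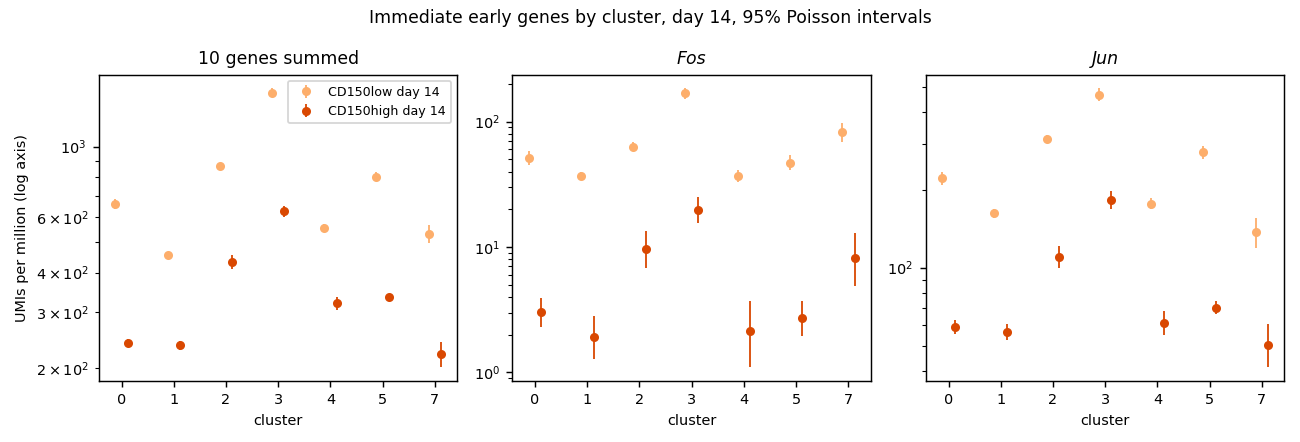
CPM (log axis) by cluster of the day 14 cells, for the summed members, Fos and Jun, in the CD150low and CD150high libraries with exact Poisson 95% intervals. In all 7 clusters the CD150low value of the sum is higher, from 1480 against 625.0 in cluster 3 to 455.0 against 236.0 in cluster 1.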

How the data were processed

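Bulk RNA (SMART-Seq v4) was measured in 24 libraries and single-cell RNA (10x 3′) in 4. Per the submitters' notes and the study's methods, the authors used Trim Galore for trimming, HISAT2 2.0.0 for alignment (mm10), SAMtools 1.14 and HTSeq 0.12.4 for counting, and they deposited FPKM values whose tool is not given in the sources used here (Cufflinks is among the tools named). The single-cell files hold UMI counts that the authors deposited from Cell Ranger. Chromatin and methylation files were not used here. Read totals are not in the bulk tables, and low-value steps gave relative depth only up to a factor of 2 in a simulation, so depth is not printed.

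Bulk comparisons used limma 3.58.1 (R 4.3.3) on log2(FPKM + 1), over genes whose mean reached 1 FPKM in a group of the fit, with Benjamini-Hochberg adjustment over all of them; a fold change on this scale understates changes of low genes. Fits were tested on simulated data. Calls needed an adjusted p under 0.05 and a fold above 2 or below 0.5, with no fold limit for the linear term, the day 4 CD150high against CD150low comparison and the interaction. Groups followed the labels. Single cells (Python 3.11.15, scanpy 1.11.5) were kept with at least 800 genes (fresh) or 2000 genes (day 14) and at most 5% mitochondrial UMIs, leaving 1104 of 1459, 2758 of 3720, 2406 of 3567 and 1933 of 9631 barcodes. A doublet caller marked 12, 5, 8 and 4 cells, which were kept, with an alternative without them. Thinning to 8975 UMIs left out 75, 212, 241 and 17 shallower cells. Phases used the lists of Seurat 5.3.0. Clusters used 2000 variable genes, 20 components, 15 neighbors and a resolution of 0.5, and were named only where a listed marker set led. Intervals are 95% and cover counting error only. Permutation tests were exact and two-sided (scipy 1.17.1). All 10 members were followed in each comparison, and Atf3 only where it was tested; of the other lists, the 3 largest rises and 3 largest falls among called genes; and the 10 genes most like the members over libraries and over cells. Genes other than members given for young replicate 3 were chosen after their values were seen. The members and lists were chosen with earlier results of these data known. Same-numbered G1 to G4 libraries come from the same mouse per the labels, and correlations of their deviations ran from -0.432 to 0.488; with mouse as a block no call changed.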

Additional observations from a re-analysis of the deposited data

How the results depend on the processing

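Of 970 member changes recomputed under other settings, 943 kept their call or stayed without one, 24 lost it, 1 gained it and 2 reversed: Junb in old against young HSCs was 1.12 without young replicate 3 (-0.78 to 1.12 over the libraries left out in turn), and Egr1 in CD150high day 4 cells was 0.37 against undivided old HSCs. A further 44, within the 943, changed sign with no call in either setting. They include Fos, Jun, Jund, Egr1 and Ier2 in old against young HSCs without young replicate 3. Leaving out 1 library at a time gave 0 to 1 called members in old against young HSCs, 3 to 7 in CD150low day 4 against G1, 6 to 8 in CD150high day 4 against G4 and 0 in the linear, G4 against G1, day 4 and interaction comparisons. Undivided old HSCs as reference gave 2 called members in both day 4 comparisons. Without a filter on low values both had 6, and median centring gave 6 in CD150low (Jund -0.91). A pseudocount of 0.1 changed 0 calls. With the replicate block, for paired numbers, 0 member calls changed, leaving 7 in each day 4 comparison. Same-numbered young and old libraries had correlations of 0.028 to 0.107, and those of the day 4 fits -0.132 to 0.092. The latter include G1 with G4 of the same mouse, at 0.003 to 0.092. Low values thus cannot show whether the other numbers pair libraries. The median library correlation was 0.819 over 24 libraries, 0.808 with a pseudocount of 0.1 and 0.312 without young replicate 3, the last chosen after seeing the data, as was thinning of the summed ratio. The summed single-cell ratio was -0.8 with all barcodes, -0.88 in G0/G1 and -0.81 in thinned cells (old over young), and -1.2 with all barcodes and -1.07 in thinned cells (day 14). Junb was -0.01 in G0/G1 cells, and Atf3, at 11 UMIs in each day 14 library, was 0.67 in G0/G1 and 0.5 in thinned cells; the cause was not tested. Thinned cells gave median cell correlations of 0.304, 0.182, 0.218 and 0.1 for young, old, CD150low and CD150high, over the unlike sets of genes described above. In single cells, Atf3 rested on at most 12 UMIs per library; bulk depth is not known.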
